A study of Mus musculus with 6 samples.

Results

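Transcription factor genes of amacrine cells, the inhibitory interneurons of the inner retina, were followed through 6 libraries of mouse retinal mRNA. The set held 10 genes, taken by their symbols from the 24346 listed in each library: the AP-2 family (Tfap2a, Tfap2b, Tfap2c, Tfap2d and Tfap2e), the homeodomain genes Pax6, Meis2 and Barhl2, the PR domain gene Prdm13 and the bHLH gene Neurod2. All 10 were found and all 10 passed the filter on low values. The retinas were labelled Cyfip2 CKO (conditional knockout, 3 libraries) or Cyfip2 WT (wild type, 3 libraries). The Cre driver, the cells in which it acts, the alleles of the WT animals, strain, age and sex are not stated in the sources used here, nor is it stated whether the libraries of a group came from separate animals, so that p-values measure only the spread between these libraries, which may be technical. The comparison asked which transcripts differ when Cyfip2, a subunit of the WAVE regulatory complex that drives branched actin assembly, is deficient in the retina.

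Amacrine cells arise from retinal progenitors under the bHLH factor Ptf1a and the forkhead factor Foxn4, which are switched off as the cells mature. AP-2 proteins bind GC-rich DNA as dimers; Tfap2a and Tfap2b act after Ptf1a in young amacrine and horizontal cells and mark amacrine cells in the adult. Pax6 is kept on in amacrine, ganglion and horizontal cells, Meis2 marks many GABAergic amacrine cells, and Prdm13, Barhl2 and Neurod2 are tied to particular amacrine subtypes.

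Levels are given as FPKM, sequenced fragments corrected for transcript length and library total, so that genes can be compared within a library. Cyfip2 itself averaged 9.91 ± 1.45 FPKM in the CKO libraries against 53.6 ± 15.7 FPKM in the WT libraries (SD, n = 3 each; limma adjusted p = 0.0239), with every CKO library below every WT library. Its log2 difference lay between -2.15 and -2.55 over 17 alternatives, but its call was lost with no filter (adjusted p = 0.07396), with robust eBayes (0.1109), without the variance trend (0.1024) and without CKO 1 (0.07381), CKO 2 (0.0967), CKO 3 (0.108), WT 2 (0.1817) or WT 3 (0.05617). WT 1, at 35.5 FPKM, stood below WT 2 and WT 3, at 63.1 and 62.3 FPKM. Relative depth, read from ratios between low genes, ran from 1 in WT 1 to 1.3 in CKO 2. The early factors of the lineage were at the bottom of the scale: Ptf1a was listed at 0 in 5 libraries and at 0.0898 FPKM in CKO 3, and Foxn4 was at or below 0.0998 FPKM throughout. Amacrine cells were represented by Gad1, which makes GABA (122.3 FPKM in CKO, 109.5 FPKM in WT), and Slc6a9, the glycine transporter (75.6 and 69.0 FPKM), and rod markers summed to 13060 to 14900 FPKM, which fits the label of retina.

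The genes were ordered in 2 directions. Tfap2a, Tfap2b, Tfap2c, Tfap2e, Pax6 and Meis2 had every CKO library above every WT library, an order that 6.96% of all genes tested showed. Prdm13 had every CKO library below every WT library, as did 6.95% of all genes; the groups were apart in either direction for 13.9%. The CKO and WT libraries of Tfap2d, Barhl2 and Neurod2 overlapped. None of the 10 genes passed the test over all 13215 genes (limma, Benjamini-Hochberg adjusted p below 0.05), where 0.0227% were called, 0.0151% higher and 0.00757% lower in CKO, so these are orderings of libraries and not called changes. In bulk tissue, fewer cells of a type and less RNA per cell cannot be told apart.

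Pax6 was the most abundant of the 10 genes, at a mean of 102.4 FPKM over the 6 libraries, followed by Tfap2b at 66.8 FPKM, Meis2 at 30.5 FPKM and Tfap2a at 18.7 FPKM. The ranges of these 4 genes did not touch one another in any library. Below them, Barhl2 (11.05 FPKM) and Prdm13 (10.2 FPKM) could not be ordered, since their ranges overlapped and Barhl2 was the higher in 5 of 6 libraries. Prdm13 and Tfap2c (8.44 FPKM) overlapped as well, with Prdm13 higher in 4 of 6. Neurod2 followed at 5.44 FPKM and was above Tfap2d in all 6 libraries. Tfap2d (3.06 FPKM) and Tfap2e (2.69 FPKM) closed the order and overlapped each other.

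**Figure D1:**
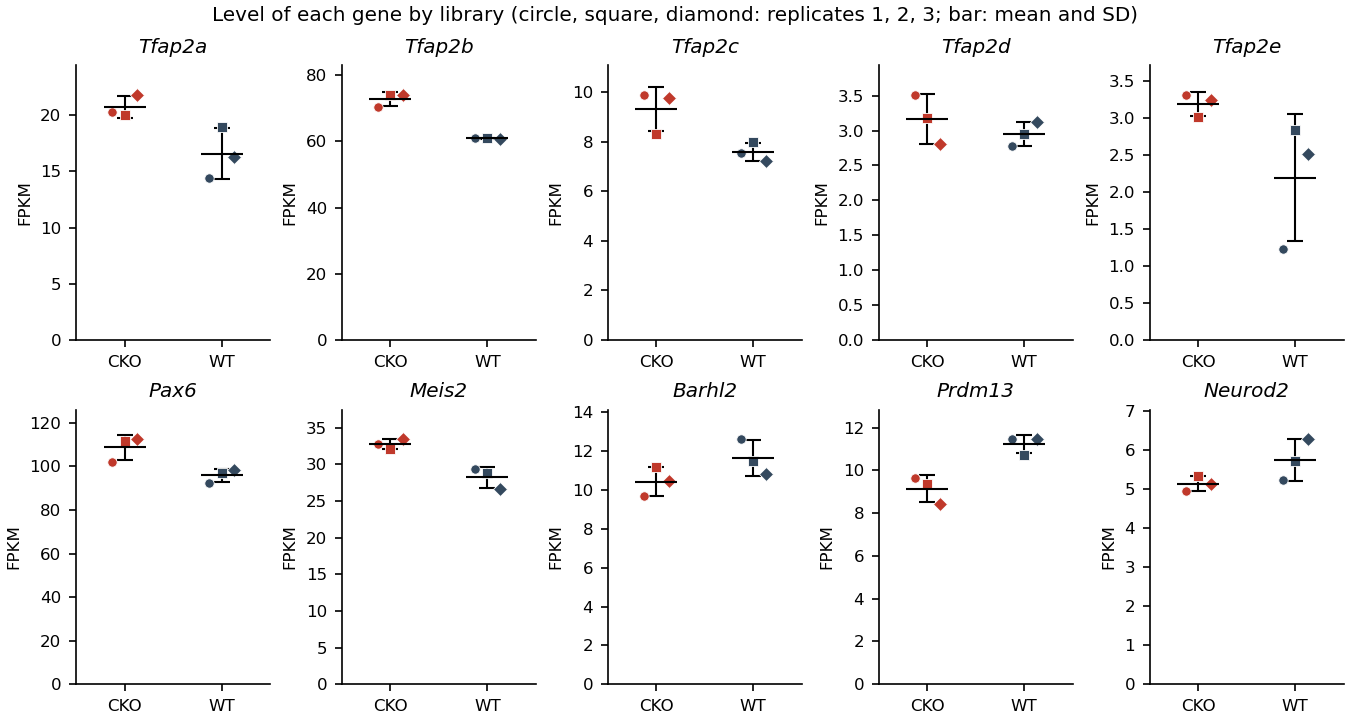
Level of each of the 10 transcription factor genes in FPKM (vertical axis, starting at 0, 1 scale per gene) in the CKO and WT libraries; symbols are replicates 1 to 3 and bars give the mean and SD. The 3 WT values of Tfap2b lie between 60.8 and 61.0 FPKM and below all 3 CKO values, while those of Tfap2e spread from 1.23 to 2.84 FPKM.

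Tfap2b, the most abundant AP-2 gene of the retina in every library, was at 70.4, 74.1 and 73.9 FPKM in CKO 1 to 3. In WT 1 to 3 it was at 61.0, 60.9 and 60.8 FPKM. The WT libraries were thus almost equal, and the lowest CKO library stood clear above them. The CKO mean of 72.8 ± 2.08 FPKM was 1.19 times the WT mean of 60.9 ± 0.127 FPKM (SD, n = 3 each). On the log2(FPKM + 1) scale, which understates the differences of low genes, Tfap2b differed by 0.25 (SE 0.04, 95% interval 0.16 to 0.35; limma adjusted p = 0.196). Tfap2b had the smallest p of the set and ranked 20 among all genes tested. Its adjusted p lay between 0.1112 and 0.706 over 17 alternative fits, and its fold change between 0.24 and 0.28. Tfap2b occupies positions 19208914 to 19238576 of chromosome 1 (GRCm38, plus strand). Its promoter window (RefSeq on GRCm38.p6, plus strand, chr1:19211804-19212103) is shown because Tfap2b had the clearest separation of the groups. The window runs from 250 bases before to 50 bases after the RefSeq start site; a match to the AP-2 palindrome would be in capitals, and it has none.
Tfap2b promoter: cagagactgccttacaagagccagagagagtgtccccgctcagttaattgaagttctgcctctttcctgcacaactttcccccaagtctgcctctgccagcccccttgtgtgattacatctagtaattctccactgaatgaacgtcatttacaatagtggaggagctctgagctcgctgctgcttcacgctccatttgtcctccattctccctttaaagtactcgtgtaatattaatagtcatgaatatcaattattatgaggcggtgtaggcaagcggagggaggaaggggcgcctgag

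Tfap2a, the founding member of the AP-2 family, was at 20.3, 19.99 and 21.8 FPKM in CKO 1 to 3. Its WT libraries 1 to 3 had 14.5, 18.99 and 16.3 FPKM. The groups did not overlap, but WT 2 came within reach of the lowest CKO library, CKO 2. Tfap2a differed by 0.31 (log2, SE 0.09, interval 0.09 to 0.53; limma adjusted p = 0.5047), with means of 20.7 ± 0.981 and 16.6 ± 2.28 FPKM (SD, n = 3 each). Tfap2a (chromosome 13, 40715302 to 40738376, minus strand) overlaps 3 annotated antisense genes, of which Gm26688 was in the files, at 0.627 to 1.116 FPKM. The kit marks strand, but whether the counting used it is not given, so reads of Tfap2a and of its antisense partners cannot be told apart.

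Tfap2c, which is also expressed in amacrine cells, was at 9.89, 8.29 and 9.74 FPKM in CKO 1 to 3. The WT libraries had 7.52, 7.98 and 7.23 FPKM in the same order. CKO 2 was the low library of its group and lay just above WT 2, the high one of the other group. The difference was 0.26 (log2, SE 0.09, interval 0.06 to 0.46; limma adjusted p = 0.5383). Tfap2c occupies positions 172549593 to 172558622 of chromosome 2 (plus strand).

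Tfap2e, an AP-2 gene best known from the olfactory system, was at 3.31, 3.01 and 3.24 FPKM in CKO 1 to 3. WT 1 to 3 had 1.23, 2.84 and 2.52 FPKM. WT 1 was far below the other WT libraries and set much of the difference between the groups. The fold change was the largest of the set, 0.43 (log2), and also the least certain (SE 0.20, interval -0.03 to 0.88; limma adjusted p = 0.6562). Without WT 1 it was 0.19. Tfap2e occupies positions 126716006 to 126736240 of chromosome 4 (minus strand).

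Tfap2d was the AP-2 gene with no separation of the groups. It was at 3.51, 3.19 and 2.80 FPKM in CKO 1 to 3 and at 2.78, 2.95 and 3.12 FPKM in WT 1 to 3. CKO 3 lay among the WT libraries. On the log2 scale Tfap2d differed by 0.07 (SE 0.10, interval -0.17 to 0.32; limma adjusted p = 0.9103), and at this spread a difference of the size seen for Tfap2b lies inside the interval. Without CKO 1 it was 0.01, without CKO 3 0.14 and without WT 1 0.04. Tfap2d (chromosome 1, 19103022 to 19166346, plus strand) is the neighbour of Tfap2b, with 42567 bp between the genes.

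Summed over the 5 paralogs, AP-2 transcripts were at 107.4, 108.6 and 111.5 FPKM in CKO 1 to 3. In WT 1 to 3 the sum was 87.0, 93.7 and 89.97 FPKM. The sums did not overlap, and their means of 109.2 ± 2.09 and 90.2 ± 3.35 FPKM (SD, n = 3 each) had a ratio of 1.21. The make-up of the family was then read as each gene's share of the sum. Tfap2b gave 66.7 ± 1.41% of the sum in CKO and 67.6 ± 2.55% in WT, and Tfap2a gave 18.98 ± 0.59% and 18.35 ± 1.83%. Tfap2c gave 8.53 ± 0.807% and 8.40 ± 0.32%, Tfap2d 2.91 ± 0.378% and 3.27 ± 0.174%, and Tfap2e 2.92 ± 0.156% and 2.41 ± 0.875% (SD, n = 3 each). In exact permutation tests over libraries (two-sided, 5 tests, smallest possible p = 0.1), unadjusted p-values ran from 0.3 for Tfap2d to 0.8 for Tfap2c. In this design no share could pass 0.05, so these tests do not show that the shares are equal. With a library left out, p was 0.1 in 2 cases, Tfap2a without WT 2 (1.594 points) and Tfap2d without CKO 1 (-0.548 points). The signs of the share differences of Tfap2a and Tfap2b turned without WT 1, where Tfap2b gave 70.1% and Tfap2a 16.6%; that of Tfap2c turned without CKO 1 or without WT 3. The share difference of Tfap2e was 0.508 points with all libraries and 0.007 points without WT 1.

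**Figure D2:**
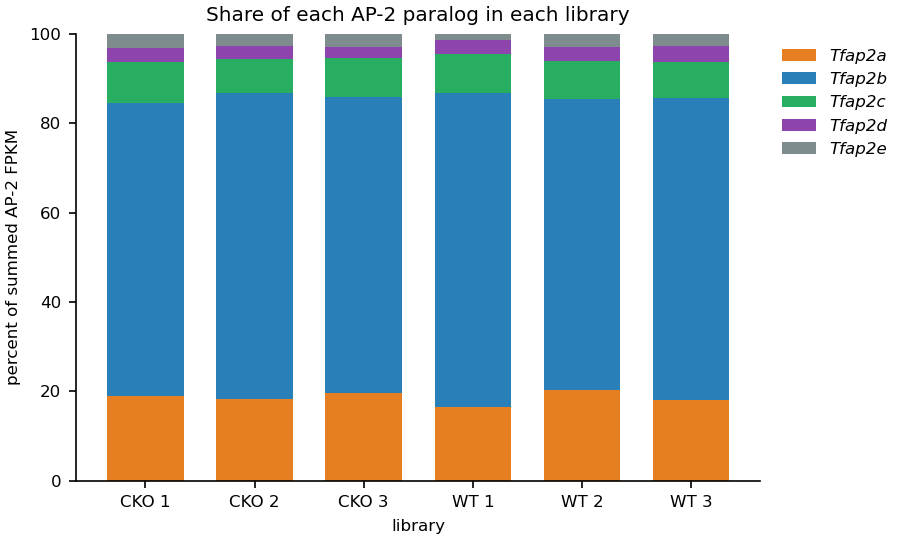
Share of Tfap2a, Tfap2b, Tfap2c, Tfap2d and Tfap2e in the summed AP-2 FPKM of each library, in percent (stacked bars, starting at 0). Tfap2b takes between 65.0% and 70.1% in all 6 libraries, and Tfap2e is smallest in WT 1, at 1.41%.

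Pax6, a paired-box and homeodomain factor needed for eye formation, was at 102.3, 111.8 and 112.7 FPKM in CKO 1 to 3. WT 1 to 3 had 92.5, 96.9 and 98.2 FPKM. The lowest CKO library, CKO 1, lay above the highest WT library, WT 3. Pax6 differed by 0.18 (log2, SE 0.05, interval 0.06 to 0.30; limma adjusted p = 0.467), with means of 108.9 ± 5.75 and 95.9 ± 2.99 FPKM (SD, n = 3 each). Pax6 (chromosome 2, 105668900 to 105697364, plus strand) overlaps the antisense gene Pax6os1. Pax6os1 itself averaged 5.36 ± 0.434 FPKM in CKO libraries and 4.25 ± 0.566 FPKM in WT libraries (log2 difference 0.28, limma adjusted p = 0.5969), and its groups did not overlap. Here too the reads of both genes cannot be told apart. Pax6 had 2 promoter windows in the RefSeq table. The first (GRCm38.p6, plus strand, chr2:105668646-105668945) is shown because it was the only window of the set with a match to the AP-2 palindrome, which is in capitals and begins 221 bases before the start site.
Pax6 promoter: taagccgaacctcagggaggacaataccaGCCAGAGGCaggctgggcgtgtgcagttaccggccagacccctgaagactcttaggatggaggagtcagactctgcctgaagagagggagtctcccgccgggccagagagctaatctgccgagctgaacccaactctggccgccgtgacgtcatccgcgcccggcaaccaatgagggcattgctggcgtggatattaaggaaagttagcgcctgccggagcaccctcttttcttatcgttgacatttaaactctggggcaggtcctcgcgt

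Meis2, a TALE homeodomain factor that binds DNA together with Pbx proteins, was at 32.7, 32.1 and 33.5 FPKM in CKO 1 to 3. Its WT libraries 1 to 3 had 29.3, 28.8 and 26.6 FPKM. All 3 CKO libraries lay close together and above the WT libraries. Meis2 differed by 0.21 (log2, SE 0.05, interval 0.08 to 0.33; limma adjusted p = 0.4119), with means of 32.8 ± 0.679 and 28.2 ± 1.45 FPKM (SD, n = 3 each). Meis2 occupies positions 115863064 to 116065839 of chromosome 2 (minus strand).

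Prdm13, a zinc finger factor of the PR domain family that acts after Ptf1a, stood on the other side. It was at 9.63, 9.36 and 8.44 FPKM in CKO 1 to 3. WT 1 to 3 had 11.5, 10.7 and 11.5 FPKM. Every CKO library was below every WT library. The difference was -0.27 (log2, SE 0.07, interval -0.44 to -0.10; limma adjusted p = 0.4273), with means of 9.14 ± 0.625 and 11.2 ± 0.417 FPKM (SD, n = 3 each) and a ratio of 0.815. Prdm13 occupies positions 21677480 to 21685963 of chromosome 4 (minus strand). Its promoter window (RefSeq on GRCm38.p6, minus strand, chr4:21685914-21686213) is shown as that of the gene ordered opposite to Tfap2b and Pax6; it holds no match to the AP-2 palindrome and so no capitals.
Prdm13 promoter: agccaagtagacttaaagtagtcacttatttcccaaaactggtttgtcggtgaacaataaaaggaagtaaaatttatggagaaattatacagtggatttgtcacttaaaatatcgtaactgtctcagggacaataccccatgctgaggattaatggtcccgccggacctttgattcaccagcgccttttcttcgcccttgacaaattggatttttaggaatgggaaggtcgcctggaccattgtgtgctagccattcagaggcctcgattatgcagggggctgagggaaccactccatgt

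Barhl2, a homeodomain factor of amacrine and ganglion cell subtypes, was at 9.70, 11.2 and 10.5 FPKM in CKO 1 to 3 and at 12.6, 11.5 and 10.8 FPKM in WT 1 to 3. CKO 2 lay above WT 3, so the groups overlapped. Barhl2 differed by -0.15 (log2, SE 0.08, interval -0.33 to 0.04; limma adjusted p = 0.7278), and it was -0.09 without WT 1. Barhl2 occupies positions 106452523 to 106458166 of chromosome 5 (minus strand).

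Neurod2, a proneural bHLH factor found in some amacrine and ganglion cells, was at 4.94, 5.34 and 5.13 FPKM in CKO 1 to 3 and at 5.22, 5.72 and 6.29 FPKM in WT 1 to 3. WT 1 lay between CKO 3 and CKO 2. Neurod2 differed by -0.13 (log2, SE 0.09, interval -0.34 to 0.07; limma adjusted p = 0.7694), and it was -0.08 without WT 3. Neurod2 occupies positions 98325415 to 98329648 of chromosome 11 (minus strand).

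**Figure D3:**
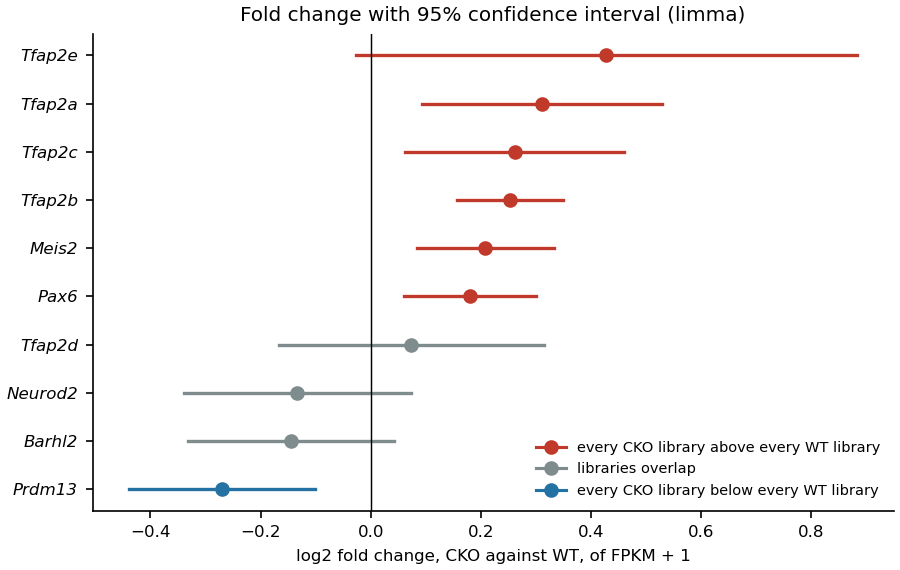
Log2 fold change of FPKM + 1, CKO against WT, for the 10 transcription factor genes (horizontal axis), with 95% confidence intervals from limma; colours give whether the libraries of the groups overlap. Intervals of Tfap2a, Tfap2b, Tfap2c, Pax6 and Meis2 lie above 0 and that of Prdm13 below 0 before adjustment, and no gene passed after it.

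Counted over the set, 7 of the 10 genes were above 0 in CKO, as were 49.5% of all genes tested. An unadjusted p under 0.05 was reached by 5 genes above 0 and by 1 below 0, against 3.52% and 4.36% of all genes, and 7.88% in either direction. The 5 became 4 with sample weights and without CKO 1, CKO 3 or WT 3, where Tfap2c dropped out. Without WT 2 they became 6. The shares of all genes in those settings were not counted. The count of 6 genes without overlap and higher in CKO was 7 without CKO 3, with Tfap2d added, and 6 without any other single library. Leaving a library out cannot make separated groups overlap, so such counts could only stay or rise. The 1 lower gene, Prdm13, was joined by Barhl2 and Neurod2 without CKO 2, by Neurod2 without WT 1 and by Barhl2 without WT 3, to give 3, 2 and 2. With fewer libraries any gene separates more easily, and the share of all genes without overlap was not counted in those settings. The median log2 fold change was 0.19 over the set and -0.0016 over all genes. It was 0.26 for the 5 AP-2 genes, all of which were above 0, and -0.13 for the other 5, of which 2 were above 0. The genes were grouped with their values in these libraries already known, so these counts describe the set and test nothing.

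Some of the genes shared their lowest or highest library, but no single order held for the set. For genes without overlap, the group that holds the lowest or highest library follows from that separation. WT 1 was the lowest library for Tfap2a, Tfap2d, Tfap2e and Pax6 and the highest for Barhl2 and Prdm13. WT 3 was the lowest for Tfap2b, Tfap2c and Meis2 and the highest for Neurod2, though for Tfap2b the 3 WT libraries were almost equal. CKO 1 was the highest for Tfap2c, Tfap2d and Tfap2e and the lowest for Barhl2 and Neurod2. Among all genes tested, one of the 2 patterns nearest to that of Tfap2b over the 6 libraries was that of Olfm3, which encodes an olfactomedin-domain protein, with a root mean square difference of 0.0296 in log2 deviations from the gene's own mean. Pax6 came 29th (0.0497) and Meis2 56th (0.0544) in nearness to Tfap2b, ahead of Tfap2c (0.0969) and Tfap2a (0.118). The pattern of Tfap2a was nearest to Klhl3 (0.0361) and Mdga1 (0.045), and that of Tfap2c to Foxj1 (0.0208) and Cdo1 (0.0426). With 6 libraries and 13215 genes such near matches are a description only.

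Other genes of amacrine cells gave a scale for the set. Of 21 genes for amacrine transmitters and effectors, 19 were tested and none was called. Their median log2 fold change was 0.09; 13 were above 0 and 6 below 0, 7 had an unadjusted p under 0.05 above 0 and 2 below 0, and the groups did not overlap for 9 higher and 2 lower. Over all genes tested, an unadjusted p under 0.05 was reached by 3.52% above 0 and 4.36% below 0, and 6.96% and 6.95% were higher or lower without overlap. C1ql2, a secreted C1q-like synapse organizer, averaged 43.8 ± 4.93 FPKM in CKO libraries and 33.7 ± 1.31 FPKM in WT libraries (SD, n = 3 each; log2 difference 0.36, limma adjusted p = 0.3401). Calb2, the calcium buffer calretinin, lay in the other direction, at 286.4 ± 6.53 and 326.8 ± 13.6 FPKM (-0.19, adjusted p = 0.3879). The mean level of the 19 effector genes on the log2(FPKM + 1) scale was 4.3 ± 0.043 in CKO and 4.221 ± 0.087 in WT (SD, n = 3 each), and the groups overlapped (difference 0.079, exact permutation test, two-sided p = 0.3).

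Each transcription factor gene was then expressed relative to that mean within each library. Relative to the effector genes, Tfap2a was higher in CKO by 0.23, Tfap2b by 0.17, Tfap2c by 0.18 and Tfap2e by 0.35 (log2), each with groups that did not overlap. Prdm13 was at -0.35 and Neurod2 at -0.21, again without overlap. On this same scale 1.29% of all genes tested were higher and 12.6% were lower in CKO without overlap; the effector mean that all genes were set against was itself higher in CKO by 0.079. Pax6 (0.10), Meis2 (0.13), Barhl2 (-0.22) and Tfap2d (-0.004) overlapped on this scale. The 6 genes without overlap had p = 0.1 in the exact permutation test (two-sided), the smallest value that 3 against 3 libraries allow, so that none of the 10 tests, left unadjusted, could pass 0.05. Tfap2b was separated by a narrow margin, CKO 1 at 1.818 and WT 1 at 1.813. Without the starburst genes Chat and Slc18a3 among the effectors, Tfap2b (0.14) and Tfap2c (0.15) had p = 0.2 in the same exact test and overlapped. In that setting Barhl2 (-0.26) had p = 0.1 in the exact test and no longer overlapped. With a pseudocount of 0.1, Tfap2b (0.17) had p = 0.2 in the exact test. Tfap2e again rested in part on WT 1, without which the difference was 0.15, and the sign of Tfap2d turned in 4 of 8 alternatives.

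**Figure D4:**
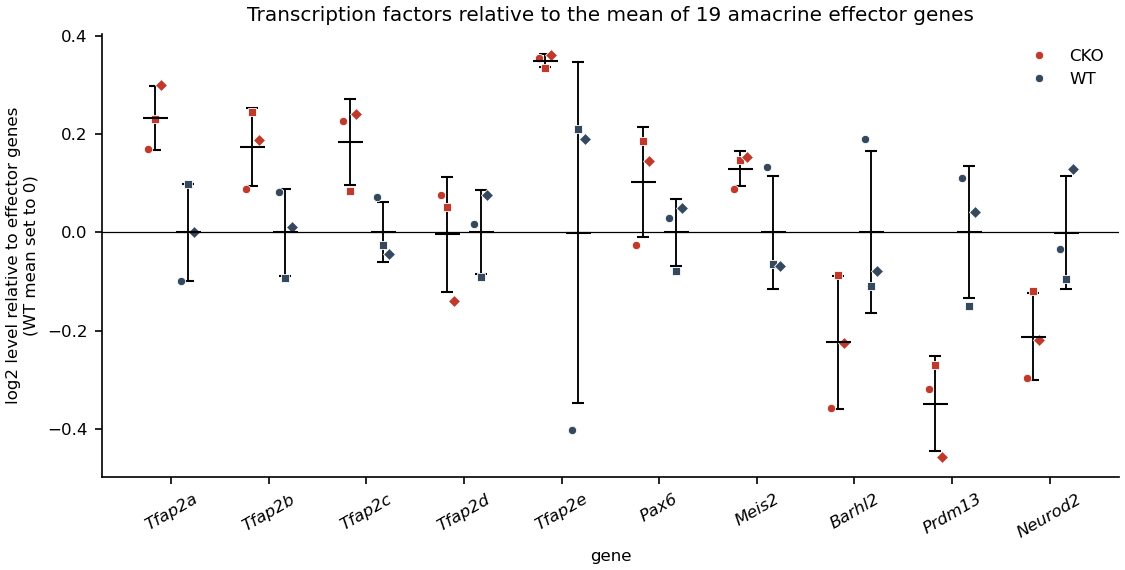
Log2 level of each transcription factor gene relative to the mean of 19 amacrine transmitter and effector genes in the same library (vertical axis, WT mean of each gene set to 0), for CKO and WT libraries with mean and SD (n = 3 each). Tfap2a, Tfap2b, Tfap2c and Tfap2e lie higher and Prdm13 and Neurod2 lower in CKO without overlap, whereas Pax6 and Meis2 overlap on this scale.

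Of 23 other transcription factors of amacrine cells and the inner retina, 18 were tested and none was called; 10 lay above 0 and 8 below 0, with a median log2 fold change of 0.01. Lhx9, a LIM homeodomain factor, averaged 5.52 ± 0.677 FPKM in CKO libraries and 3.799 ± 0.545 FPKM in WT libraries (SD, n = 3 each; 0.44, limma adjusted p = 0.4182), and its groups did not overlap. Isl1, a LIM homeodomain factor of starburst amacrine, bipolar and ganglion cells, was at 64.5 ± 2.05 and 70.8 ± 3.02 FPKM (-0.13, adjusted p = 0.591). Nr4a2, an orphan nuclear receptor, was at 4.15 ± 0.0647 and 3.63 ± 0.0922 FPKM (0.15, adjusted p = 0.7165). Ebf3, which marks amacrine cells that need Prdm13 in the mouse, was singled out after its values were seen; it was at 15.3 ± 0.0822 and 15.1 ± 0.175 FPKM (0.02, interval -0.10 to 0.14, adjusted p = 0.9477).

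The lists of partner genes had medians close to 0, though single genes lay in both directions. Of 9 cofactors and inhibitors of AP-2 proteins, 8 were tested, with 4 above and 4 below 0, none called and a median log2 fold change of -0.03. Yeats4, a chromatin reader reported to assist AP-2, averaged 49.2 ± 2.305 FPKM in CKO libraries and 55.7 ± 2.53 FPKM in WT libraries (SD, n = 3 each; -0.18, limma adjusted p = 0.5093). Kctd1, a repressor of AP-2 activity, was at 14.2 and 12.6 FPKM, and the coactivator Cited2 at 69.3 and 76.5 FPKM, both with overlapping groups. Among the 8 TALE partners of Meis2, all tested and none called, 5 were above 0 and 3 below 0 (median 0.05, range -0.43 to 0.20). Their groups did not overlap for 3 genes higher and 2 lower in CKO, against 6.96% and 6.95% of all genes tested. Pbx4 was at 2.89 ± 0.213 and 4.24 ± 0.51 FPKM (-0.43, adjusted p = 0.3954), while Pbx2 (21.7 and 19.4 FPKM) and Pknox2 (5.45 and 4.64 FPKM) lay in the other direction.

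The 7 E proteins and Id genes, which pair with bHLH factors such as Neurod2 or block them, had 2 members above 0 and 5 below 0, with none called and a median log2 fold change of -0.09. Id1, which blocks E proteins, averaged 18.7 ± 0.256 FPKM in CKO libraries and 21.9 ± 2.84 FPKM in WT libraries (SD, n = 3 each; -0.21, limma adjusted p = 0.6042). Tcf3 was at 13.5 and 15.1 FPKM and Tcf12 at 26.3 and 28.1 FPKM, both genes for E proteins. Of 22 paralogs of Pax6 and Prdm13, 9 passed the filter on low values and none was called; all 9 were Prdm genes, with 6 above 0, 3 below 0 and a median of 0.07. Prdm15 (3.30 and 2.60 FPKM, 0.26, adjusted p = 0.5913) and Prdm10 (4.74 and 3.99 FPKM, 0.20, adjusted p = 0.6248) had CKO libraries above every WT library. Prdm4, at 12.8 and 14.2 FPKM, overlapped.

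Genes next to the set on the chromosome mostly lay near 0. Within 1 Mb, the tested neighbours numbered 8 for Tfap2a, 7 for Tfap2c, 22 for Tfap2e, 11 for Pax6, 2 for Meis2, 10 for Barhl2, 8 for Prdm13 and 44 for Neurod2, and none was called. Their median log2 fold changes lay between -0.03 for Barhl2 and 0.08 for Pax6. The nearest neighbours of Tfap2a (Gcnt2, 0.04), Tfap2c (Cstf1, -0.03, and Bmp7, 0.02), Tfap2e (Psmb2, -0.04, and Ncdn, 0.10) and Prdm13 (Nkain3, 0.11, and Ccnc, -0.10) all had overlapping groups. Those of Meis2 (BC052040, 0.02, and 2810405F15Rik, -0.03), Barhl2 (Zfp326, -0.02, and Zfp644, 0.07) and Neurod2 (Cdk12, 0.03, and Ppp1r1b, -0.17) overlapped as well. The only tested neighbour of Tfap2b was Tfap2d. Beside Pax6, the noncoding RNA Paupar (0.18, limma adjusted p = 0.7678) and Elp4 (0.09, adjusted p = 0.8177) overlapped too, and only the antisense gene Pax6os1 (0.28) did not. Farther from Pax6, Immp1l (-0.37, limma adjusted p = 0.4697) and Qser1 (-0.13, adjusted p = 0.7584), named after their values were seen, were lower in CKO without overlap. This was not particular to Pax6. Farther neighbours without overlap also lay near Tfap2a (lower in CKO), Neurod2 (higher), and Tfap2e and Barhl2 (both directions). Over all genes tested, 13.9% were without overlap in either direction.

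**Figure D5:**
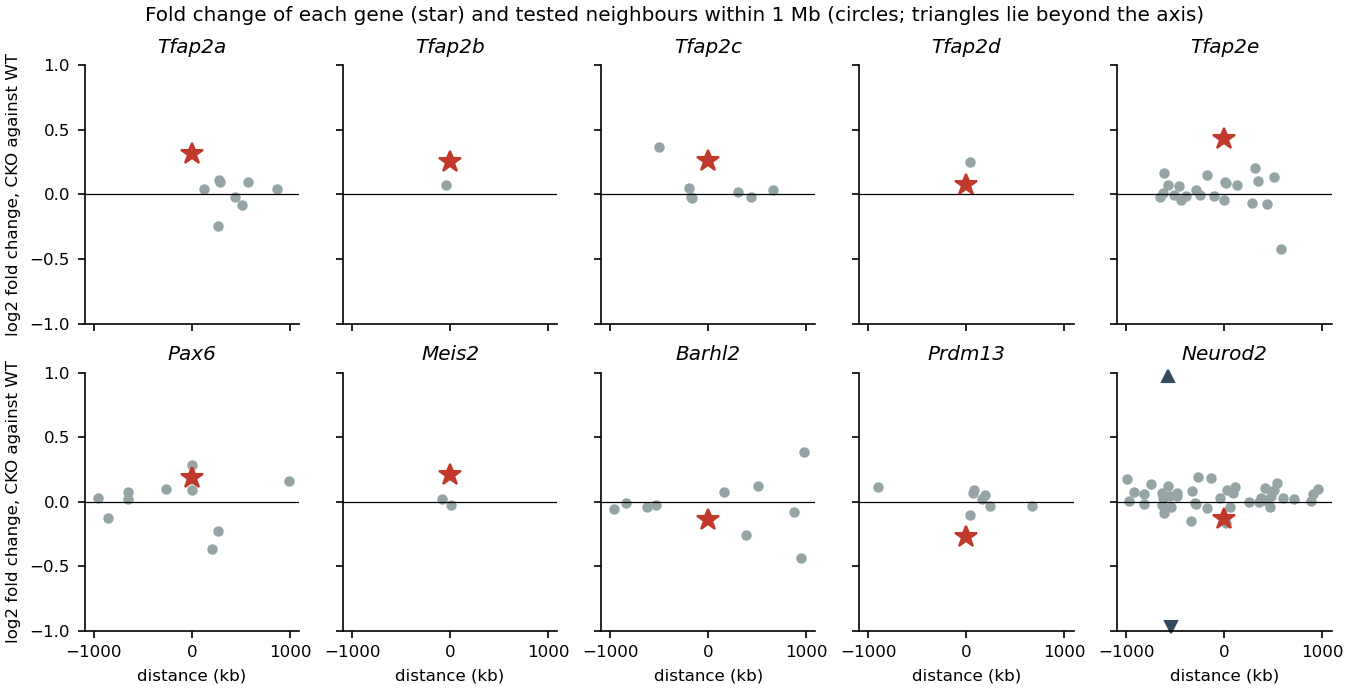
Log2 fold change of FPKM + 1, CKO against WT (vertical axis), of each transcription factor gene (star) and of tested genes within 1 Mb (circles), by distance in kb from the gene (horizontal axis, lower coordinates to the left); triangles mark 2 small RNA genes beyond the axis near Neurod2. Around Tfap2a, Tfap2b, Tfap2e, Meis2 and Prdm13 the star lies farther from 0 than every circle.

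Promoter windows were found in the RefSeq table for 9 of the 10 genes, 13 windows in all; Tfap2c had none. Motifs were searched on both strands. The AP-2 palindrome GCCNNNGGC stood in 1 of the 13 windows, the Pax6 window printed above, and in 16.6% of all 32851 windows. The Meis motif TGACAG stood in the windows of Neurod2 and Pax6 (2 of 13, against 19.2% of all windows). The homeodomain palindrome TAATTA stood in 1 window of Tfap2a (5.29% of all windows), and the E-box CAGATG in that of Neurod2 (17.2%). In the Neurod2 window the Meis and E-box matches overlap. The windows of Tfap2b and Prdm13, genes ordered in opposite directions, had GC contents of 48.3% and 44.3%, below the median of 52.7% over all windows.

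Markers of other cells that express some of these genes were also in part ordered by group. Dkk3, a marker of Müller glia, was the only tested marker of other cell types that limma called. Of all genes tested, 49.5% were above 0. Horizontal cells share Tfap2a, Tfap2b and Pax6 with amacrine cells; of their 8 markers, all tested, 7 were below 0, and their summed level was 353.2 to 388.6 FPKM in CKO and 404.1 to 421.2 FPKM in WT. Ganglion cells share Pax6, Barhl2 and Neurod2; 9 of their 10 markers, all tested, were below 0, with sums of 586.2 to 612.4 FPKM and 643.9 to 702.9 FPKM. Neither list had a marker below 1 FPKM in every library. Other cell types leaned the same way: 8 of 8 cone, 7 of 8 rod and 6 of 8 bipolar markers were below 0. Pigment epithelium went the other way, with 2 of its 3 tested markers above 0. Most of the gap between the ganglion sums lay in Nefl (CKO mean 221.1, WT mean 266.0 FPKM), Nefm (66.1, 81.6) and Nefh (36.1, 42.7). These genes were among the 6 ganglion markers lower in CKO without overlap, an order that 6.95% of all genes tested showed. It was also shown by 5 horizontal, 3 cone and 3 bipolar markers, and no marker of these 4 lists was higher without overlap. Whether the ganglion sums stay apart without Nefl, Nefm and Nefh was not tested. Summed markers were also apart for cones (635.2 to 698.8 FPKM in CKO, 701.7 to 786.4 FPKM in WT), for bipolar cells (821.5 to 869.5 and 890.0 to 936.9 FPKM) and, in the other direction, for Müller glia (2193 to 2381 and 2015 to 2106 FPKM). The separation of the Müller glia sums rested on Dkk3, a secreted protein gene called higher in CKO (446.9 and 233.9 FPKM, limma adjusted p = 0.00274). Without Dkk3 the sums were 1777 to 1907 FPKM in CKO and 1782 to 1865 FPKM in WT and overlapped, an alternative added after the data were seen. Of all 8 Müller glia markers 5 were above 0 and 3 below 0 (median log2 fold change 0.02), and Vim was lower in CKO without overlap (-0.21, adjusted p = 0.5303). They overlapped for rods, astrocytes, microglia, endothelium and pericytes, and pigment epithelium. The lens, where Pax6 is also expressed, differed most between libraries: 5 of its 8 markers were tested, all 5 below 0, and they summed with the others to 25.6 to 42.7 FPKM in CKO and to 38.9, 225.6 and 79.8 FPKM in WT 1 to 3, with Mip below 1 FPKM throughout. Pax6 in WT 2, the library highest in lens genes, lay between its values in WT 1 and WT 3. The part of these markers in the differences of the set was not tested.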

How the data were processed

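Retinal mRNA was sequenced in 6 libraries, 3 labelled CKO and 3 labelled WT; groups and replicate numbers came from the sample titles. Libraries came from a strand-marking kit for mRNA, per the labels' protocols. Cufflinks 2.2.1, TopHat2 2.0.13, SAMtools 1.11, Bowtie2 2.3.5.1 and the build mm10 appear, without roles, per the submitters' processing notes. The sources used here give neither the annotation nor whether strand was used. Values deposited by the authors were taken as FPKM, from Cufflinks being named and from their range. Since read counts are not part of them, absolute depth is unknown, and precision was read from the spread between libraries. In WT 3, 27 symbols stored as dates were restored from the same rows of the other libraries. Positions are from GENCODE M21 (GRCm38), and promoters from RefSeq.

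The 13215 genes averaging 1 FPKM or more were compared on log2(FPKM + 1) with limma 3.58.1 in R 4.3.3 (eBayes with a variance trend, two-sided, no covariate), adjusted over all of them by Benjamini-Hochberg at 0.05. Data for CKO against WT were simulated 10 times, with 13215 genes of which 200 were changed, by up to 2 (log2). The fit recovered 11% of genes changed by 0.25 (log2), 67.4% of those changed by 0.5 and 96% of those changed by 1. On average 8.2 genes without a change were called. In the real data only 3 genes were called, so the adjusted threshold was stricter there than in the simulation. The recovered shares may therefore be too high for these data. The 10 genes, the lists and the rule for named genes were chosen with earlier results of these data known. Named were the 10 genes, the 3 genes of smallest p in each list of amacrine, partner and paralog genes, the nearest tested neighbours, and the 2 nearest patterns to each of Tfap2a, Tfap2b and Tfap2c; Ebf3, Gad1, Slc6a9, Ptf1a and Foxn4 were added as background. One gene that the rule names is not reported here. Marker lists of other cell types were summed and counted. Alternatives covered the pseudocount, the filter, scaling, the variance model, the replicate block and each library left out.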

Additional observations from a re-analysis of the deposited data

How the results depend on the processing

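Over 16 or 17 alternative fits, each of the 10 genes kept the sign of its fold change and none was called by limma. Tfap2d and Tfap2e have 16, since they miss a minimum of 5 FPKM. The filter, the replicate block, robust eBayes and the fit without the trend leave a fold change as it is, so its sign was fixed there. For genes without overlap, leaving out a library could not turn the sign either. Over all genes, the count higher in CKO was 1 with the replicate block, 1 without the variance trend and 1 to 3 with a library left out, against 2; the count lower was 0 with no filter, 0 with robust eBayes, 0 without the trend and 0 to 2 with a library left out, against 1, which is Cyfip2. The median log2 fold change of the set was 0.1719 to 0.2148 with a library left out, lowest without WT 1. Genes without overlap that were lower in CKO numbered 1 to 3 with a library left out, an alternative added after the data were seen. That count could only stay or rise with fewer libraries, and the share of all genes was not counted beside it.

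With a library left out, the differences in AP-2 share were -0.233 to 1.594 points for Tfap2a, -2.169 to 0.384 for Tfap2b and -0.214 to 0.571 for Tfap2c. Relative to effector genes, Tfap2d was at -0.051 to 0.063 with a library left out and at 0.007 with a pseudocount of 0.1. The median of the paralogs of Pax6 and Prdm13 was -0.0205 with a minimum of 5 FPKM, which leaves fewer genes. The cause of the other shifts was not tested.

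Replicate numbers are shared between the groups. The deviations of same-numbered libraries had Pearson's r of 0.072, 0.006 and 0.101 across genes. For differently numbered libraries r ran from -0.119 to 0.036, so 0.072 and 0.101 were the highest values, though low. The numbers were not taken to pair the libraries, and a weak pairing cannot be judged from these values. With the replicate block, the adjusted p of Tfap2b was 0.3008, and none of the 10 genes was called.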
